A study of Homo sapiens with 8 samples.

Results

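Eph receptors and ephrins were followed in AB8 cells, a human line derived from podocytes, the cells that form the filtration barrier of the kidney glomerulus. The members were taken by name: 5 receptor genes (EPHA2, EPHA4, EPHA5, EPHB2 and EPHB4) and 4 ephrin genes (EFNA1, EFNA5, EFNB1 and EFNB2), 9 of the 58395 genes in the count table. All 9 were among the 15637 genes that passed the filter on low counts. Every library came from AB8 cells carrying the construct labelled pIND21_hCrb2+GFP_S267A, at passage 3 to 8 after modification. This construct encodes human CRB2, a Crumbs family polarity protein that spans the membrane, with GFP and the S267A change, under doxycycline control. There were 4 libraries from non-induced cells and 4 from cells induced with doxycycline for 48 h, numbered 1 to 4 in each group. Non-induced cells carry the construct too, and cells given doxycycline without it, or with another construct, were not analysed here. Effects of the drug, of CRB2, of the S267A change and of GFP therefore cannot be told apart. Whether the modified line is a single clone or a pool is not given in the sources used here.

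Eph receptors are receptor tyrosine kinases whose ligands, the ephrins, are themselves held in the membrane of a neighbouring cell. Ephrin-A proteins are held by a lipid anchor and mostly bind EphA receptors, while ephrin-B proteins cross the membrane, mostly bind EphB receptors, and carry a cytoplasmic tail that signals back into the cell that bears them. EphA4 is an exception that binds both classes. Contact signalling by the pair steers adhesion, repulsion and actin in developing axons, vessels and epithelia, and ephrin-B1 is known as a protein of the podocyte slit diaphragm.

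The libraries held 16829454 to 23081616 counted reads. CRB2 checked the labels: it stood at 20.6 ± 8.47 CPM (read counts scaled by library total and TMM factor) without and 3766 ± 1363 CPM with induction (SD, n = 4 per group), and was 164- to 209-fold higher within the pairs of equal number. Both libraries numbered 1 stood apart: their median absolute log2 difference from the rest of their group was 0.19 and 0.20, against 0.08 to 0.11 for the other 6. Both libraries numbered 1 also held less CRB2 than the rest of their group. These values were 8.31 CPM against 21.8 to 26.4 CPM without and 1734 CPM against 4252 to 4599 CPM with induction. The CRB2 fold within pair 1 was the largest of the 4, at 209. The main fit compared the groups alone and left out the library number, whose meaning no label gives. In that fit 0 of the 9 members passed in edgeR. A second fit added a block for the library number, and 3 members passed there. Because the libraries numbered 1 stood apart, changes are given from this second fit. Where the call of a member differs, its change is also given without the block and without the libraries numbered 1. For other genes whose call differs, the adjusted p without the block is added. Of the defining podocyte markers, NPHS1 had 3 reads over the 8 libraries, while SYNPO stood at 39.6 ± 13.4 and WT1 at 3.18 ± 1.68 CPM without induction (SD, n = 4), and the sum of the 11 podocyte markers was 37.2 to 84.0 CPM without and 42.9 to 81.8 CPM with induction. Summed levels of 9 endothelial markers were 3.05 to 5.74 CPM without and 2.53 to 5.64 CPM with induction, with KDR and EMCN at 0 (up to 0.131 to 0.179 CPM in a library by counting error). Of 6 leukocyte markers, PTPRC had 1 read, and their sum was 3.59 to 4.16 against 2.38 to 3.33 CPM. The sum of 6 mesangial markers was 278 to 453 against 299 to 443 CPM, mostly MCAM, with ITGA8 at 0. Of 8 tubular and parietal markers LRP2 and UMOD were at 0, and their sum, mostly PAX8 and CLDN1, was 604 to 666 CPM without and 396 to 554 CPM with induction. Tested were 5 podocyte, 2 endothelial, 3 mesangial, 3 tubular and parietal and 3 leukocyte markers. With the block 4 markers passed in edgeR, where 13.8% of all tested genes did. Without it 0 passed, where 0.0384% of all tested genes did. PAX8 (adjusted p = 0.041 with and 0.384 without the block) and CLDN1 (5.32e-04 and 0.257) fell, while the podocyte marker PODXL rose from 2.64 ± 0.631 to 3.72 ± 0.456 CPM (0.035 and 0.467) and the mesangial marker PDGFRB from 11.9 ± 0.814 to 15.2 ± 2.22 CPM (0.0299 and 0.388). The part of these marker differences in the changes of the members was not tested. In such bulk RNA, fewer cells of a type and less RNA per cell cannot be told apart.

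Among the members, 2 receptor genes of class A rose and 1 ephrin gene of class B fell with induction in the fit with the replicate block. EPHA5 was 1.88-fold and EPHA4 1.64-fold higher, and EFNB1 was at 0.689 times its non-induced level. The remaining 6, among them the most abundant receptor, EPHA2, did not pass, and their adjusted p without the block was 0.684 to 0.984 in edgeR. With the block, 3 of 9 members passed an FDR of 0.05 over all tested genes, where 13.8% of all tested genes did (7.51% higher and 6.29% lower). Without the block 0 of 9 passed in edgeR, where 0.0384% of all genes did (0.032% higher and 0.0064% lower), although 3 had an unadjusted p under 0.05, and DESeq2 called 1, EPHA4. Over all 15637 tested genes, 1466 had an unadjusted p under 0.05 and DESeq2 called 240 without the block. All 3 calls were also made without the block once both libraries numbered 1 were left out. In that fit 543 of 15769 tested genes were called, against 6 of 15637 with all libraries, so the rise in calls was general. The median log2 change of the 9 members was -0.03 with the block, beside 0.00 over all tested genes, and their median absolute change was 0.10, beside 0.10. In 5 of 9 members all 4 pairs moved the same way, where 35.6% of tested genes did. Whether the libraries of a group come from separate cultures is not labelled, and the spread behind each p-value may be technical.

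Levels of different genes were compared per length, as RPKM, which is the CPM divided by the kilobases of annotated exon. EPHA2, a receptor for ephrin-A1 that is common in epithelia, stood far above the rest at 49.1 ± 5.13 RPKM without induction (SD, n = 4), and all 4 of its libraries exceeded every other member's. Next came the class B receptor EPHB2 at 11.9 ± 2.36, the ligand EFNB2 at 9.22 ± 0.925, the receptor EPHB4 at 8.13 ± 1.16, EFNA1 at 6.87 ± 6.05 and EFNB1 at 5.66 ± 1.52 RPKM. Each of these overlapped its neighbour in that order. EFNA5 at 3.58 ± 0.222 RPKM lay below EFNB1 in all 4 libraries with no overlap. EPHA5 at 0.644 ± 0.248 and EPHA4 at 0.363 ± 0.0122 RPKM were lowest, below EFNA5 without overlap, and overlapped each other. Among the 5 receptor members, the 2 that rose were thus those with the least transcript. In induced cells the order of the first 4 and the last 3 was the same, EFNB1 (3.86 ± 0.572) and EFNA1 (3.79 ± 1.11) overlapped, and EPHA5 (1.21 ± 0.411) again overlapped EPHA4 (0.597 ± 0.0677 RPKM). With the length of the longest transcript in place of all exons, EPHB4 stood above EFNB2.

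**Figure D1:**
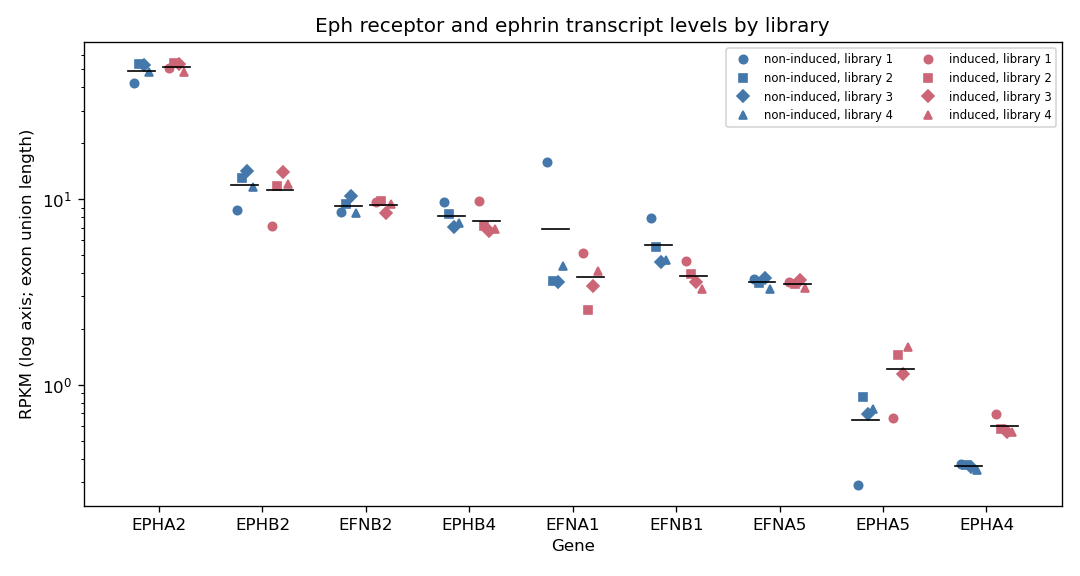
RPKM of each member on a log axis, by gene in order of the non-induced mean; blue points are non-induced and red points induced libraries, the marker shape gives the replicate number, and black lines are group means (n = 4). EPHA2 lies above all others, EPHA4 and EPHA5 lie lowest and are higher in induced libraries, and non-induced library 1 stands far above the rest for EFNA1 (15.9 RPKM against 3.59 to 4.36).

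EPHA4, the receptor that binds ephrins of both classes (ENSG00000116106, GRCh38 chromosome 2, 221418027 to 221574202, minus strand), was low, with 57, 60, 58 and 44 reads in the non-induced and 104, 100, 88 and 80 in the induced libraries of number 1 to 4. In CPM these were 2.84, 2.80, 2.71 and 2.63 without and 5.26, 4.37, 4.19 and 4.202 with induction. The groups did not overlap, and EPHA4 was the only member of which this was true, where 7.04% of tested genes have groups that do not overlap. The non-induced libraries lay close together, library 1 included. The highest induced value was in library 1, the induced library with the least CRB2, though not the pair with the smallest CRB2 fold. The rise within the pairs was 1.86-, 1.56-, 1.55- and 1.60-fold for numbers 1 to 4. The log2 change was 0.71 with the block (SE 0.13, 95% interval 0.44 to 0.99, edgeR adjusted p = 0.00265) and 0.71 without it (SE 0.13, adjusted p = 0.128). Without both libraries numbered 1 it was 0.64 (adjusted p = 0.0154 with and 0.0365 without the block).

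EPHA5, a class A receptor best known from the nervous system (ENSG00000145242, chromosome 4, 65319563 to 65670495, minus strand), gave 57, 181, 146 and 121 reads without induction and 129, 326, 236 and 298 with it, for numbers 1 to 4. Its levels were 2.84, 8.45, 6.82 and 7.24 CPM without and 6.53, 14.3, 11.2 and 15.7 CPM with induction. Both libraries numbered 1 were the lowest of their group, and induced library 1 fell within the non-induced range, so the groups overlapped through that number alone. Within the pairs EPHA5 was 2.30-, 1.69-, 1.65- and 2.16-fold higher. The blocked log2 change of EPHA5 was 0.91 (SE 0.10, 95% interval 0.70 to 1.13, edgeR adjusted p = 6.90e-05). Without the block it was 0.91 (SE 0.36, adjusted p = 0.473), and without both libraries numbered 1 it was 0.85 with (adjusted p = 1.61e-04) and 0.86 without the block (adjusted p = 0.004). EPHA5-AS1, an RNA gene on the opposite strand that shares 535 exon bases with EPHA5, had 6, 9, 10 and 17 reads in non-induced and 19, 19, 16 and 24 in induced libraries. Libraries were made with a directional kit, but no source used here names the strand option used in counting, so reads of the 2 genes from the shared bases cannot be told apart. For EPHA4 the opposite-strand gene AC079834.2, with 353 shared bases, had 29 reads in all. The same limit holds for EPHB4, which shares 69 exon bases with opposite-strand SLC12A9 (4234 reads in all). It also holds for the family gene EPHA1, which shares 82 with opposite-strand ZYX (57044 reads in all).

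**Figure D2:**
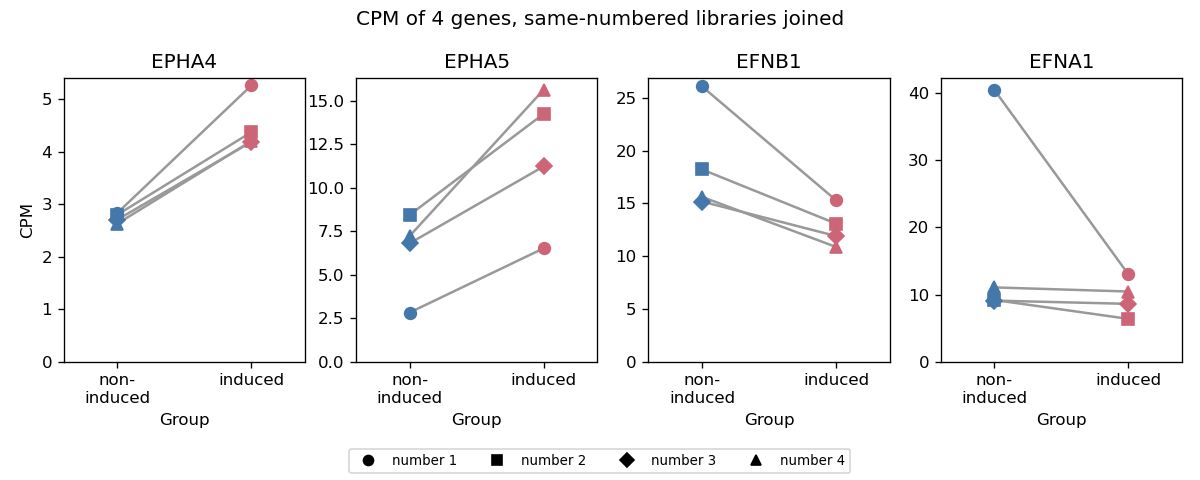
CPM of EPHA4, EPHA5, EFNB1 and EFNA1 in non-induced (blue) and induced (red) libraries, with lines joining libraries of the same number and the marker shape giving the number; each axis starts at 0. All 4 lines rise for EPHA4 and EPHA5 and fall for EFNB1, and the EFNA1 line that falls steeply is number 1 (40.4 to 13.01 CPM).

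EPHA2 (ENSG00000142627, chromosome 1, 16124337 to 16156087, minus strand) stood at 176, 221, 220.1 and 200.2 CPM in non-induced and 211, 224, 222 and 201 CPM in induced libraries 1 to 4. The groups overlapped, and the pairs differed by 1.20-, 1.01-, 1.01- and 1.00-fold, so that number 1 held nearly all of the difference. The log2 change was 0.07 with the block (SE 0.04, 95% interval -0.02 to 0.17, edgeR adjusted p = 0.303). EPHA2 made up 68.8% to 70.5% of the summed receptor RPKM in non-induced and 69.5% to 73.6% in induced libraries.

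The class B receptors did not pass. EPHB2 (ENSG00000133216, chromosome 1, 22710839 to 22921500, plus strand) measured 109.8, 163, 179 and 146 CPM before and 89.3, 148, 175 and 152 CPM after induction. Both libraries numbered 1 were lowest, and the log2 change was -0.10 (SE 0.05, 95% interval -0.21 to 0.01, adjusted p = 0.209 in edgeR with the block). EPHB4, the receptor that marks veins and binds ephrin-B2 (ENSG00000196411, chromosome 7, 100802565 to 100827521, minus strand), ran the other way across numbers. It stood at 62.4, 53.3, 45.8 and 47.7 CPM without and at 62.6, 46.3, 43.6 and 44.4 CPM with induction, so that both libraries numbered 1 were highest. Its log2 change was -0.09 (SE 0.05, 95% interval -0.19 to 0.01, adjusted p = 0.207 in edgeR with the block), with numbers 2 to 4 lower and number 1 level at 1.00-fold. For both receptors the difference between number 1 and the other numbers was larger than that between the groups.

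EFNB1, the transmembrane ligand of EphB receptors (ENSG00000090776, chromosome X, 68828997 to 68842147, plus strand), gave 524, 390, 325 and 261 reads without induction and 302, 299, 250 and 207 with it, for numbers 1 to 4. In CPM these were 26.1, 18.2, 15.2 and 15.6 without and 15.3, 13.1, 11.9 and 10.9 with induction. Both libraries numbered 1 were the highest of their group, and the groups met only where induced library 1 (15.29 CPM) stood just above the lowest non-induced library (15.17 CPM). Within the pairs EFNB1 was at 0.587, 0.718, 0.785 and 0.697 times the non-induced level. EFNB1 changed by a log2 value of -0.54 with the block (SE 0.08, 95% interval -0.71 to -0.37, edgeR adjusted p = 7.02e-04) and -0.55 without it (SE 0.19, adjusted p = 0.39). Without both libraries numbered 1 the fall was smaller, -0.45, and passed with (adjusted p = 0.00347) and without the block (adjusted p = 0.0314).

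EFNB2, the second class B ligand and the marker of arteries (ENSG00000125266, chromosome 13, 106489731 to 106535662, minus strand), did not share the change of EFNB1. Its non-induced libraries held 42.9, 47.4, 52.3 and 42.3 CPM and its induced libraries 48.1, 49.0, 42.3 and 47.4 CPM, with a log2 change of 0.01 (SE 0.07, 95% interval -0.15 to 0.18, adjusted p = 0.931 in edgeR with the block). The interval of EFNB2 does not reach that of EFNB1, though the difference between the genes was not itself tested. EFNB2 made up 40.6% to 49.6% of summed ephrin RPKM in 7 libraries and 23.7% in non-induced library 1.

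Among the lipid-anchored ligands, EFNA1, first cloned as a transcript induced by tumour necrosis factor (ENSG00000169242, chromosome 1, 155127460 to 155134857, plus strand), had the widest spread of any member. It stood at 40.4, 9.20, 9.10 and 11.1 CPM in non-induced and 13.01, 6.39, 8.62 and 10.5 CPM in induced libraries 1 to 4. Non-induced library 1 stood far above all others, and induced library 1 was the highest of its group. Every pair was lower with induction, at 0.322, 0.694, 0.947 and 0.945 times the non-induced level, but the change did not pass (log2 change -0.68, SE 0.37, 95% interval -1.80 to 0.43, adjusted p = 0.357 in edgeR with the block). Without both libraries numbered 1 the log2 change with the block was -0.23 (adjusted p = 0.222), and without the block it was -0.86 with all libraries and -0.03 without non-induced library 1. EFNA5 (ENSG00000184349, chromosome 5, 107376889 to 107670895, minus strand) varied little, at 18.7 to 21.5 CPM without and 18.9 to 20.8 CPM with induction, and had a log2 change of -0.03 (SE 0.06, 95% interval -0.16 to 0.10, adjusted p = 0.768 in edgeR with the block). It was 1 of only 2 members, with EFNB2, in which neither library numbered 1 was the highest or lowest of its group.

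**Figure D3:**
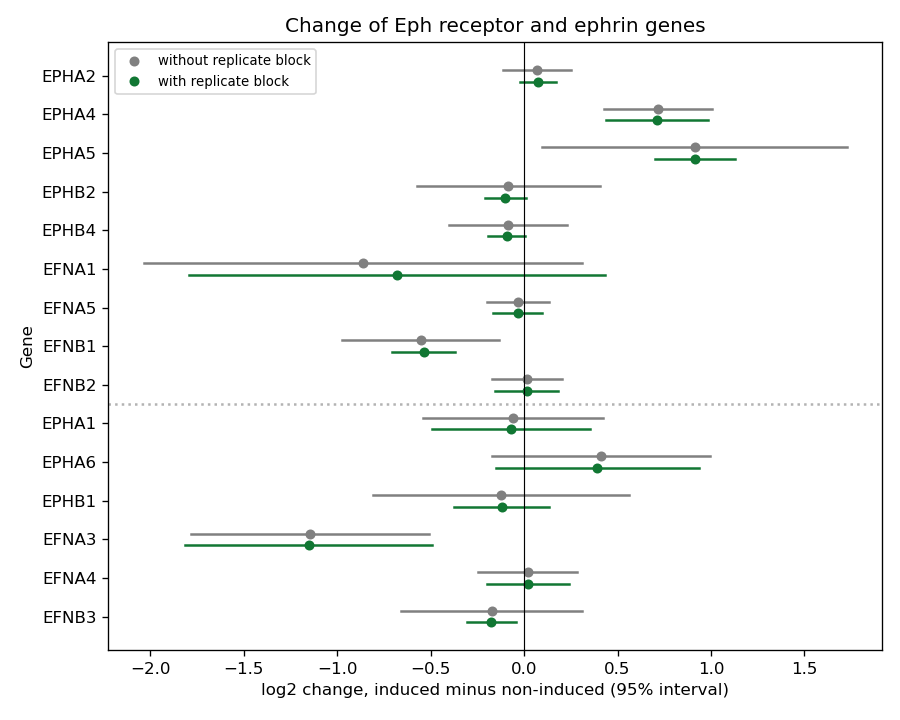
Log2 change with its 95% interval for the 9 members (above the dotted line) and the 6 other tested genes of the family, without (grey) and with (green) the replicate block. With the block the intervals of EPHA4, EPHA5, EFNB1, EFNA3 and EFNB3 lie away from 0. Without it those of EPHA4, EPHA5, EFNB1 and EFNA3 do. The intervals of EPHA5 and EFNB1 are narrower with the block than without it, and EFNA1 keeps a wide interval in both fits.

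The balance of receptor and ligand transcript followed these values. Summed RPKM of the 5 receptors was 61.4, 75.7, 75.3 and 68.3 in non-induced and 69.0, 74.9, 75.9 and 69.4 in induced libraries 1 to 4. Summed RPKM of the 4 ephrins was 36.1, 22.1, 22.4 and 20.8 without and 22.9, 19.7, 19.1 and 20.2 with induction. Receptor transcript exceeded ephrin transcript in all 8 libraries. The ratio was 1.70, 3.42, 3.37 and 3.29 without and 3.02, 3.797, 3.98 and 3.44 with induction, higher in all 4 pairs, with non-induced library 1 far below the rest and EFNA1 making up 44.2% of its ephrin sum. These sums describe RNA of the 9 members only, and leave out EFNB3 and EFNA4. Mean levels of EFNB3 were 7.04 RPKM without and 6.25 RPKM with induction, and those of EFNA4 4.35 and 4.41 RPKM. With EFNB3 and EFNA4 added to the ephrin sums, every ratio would be lower.

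**Figure D4:**
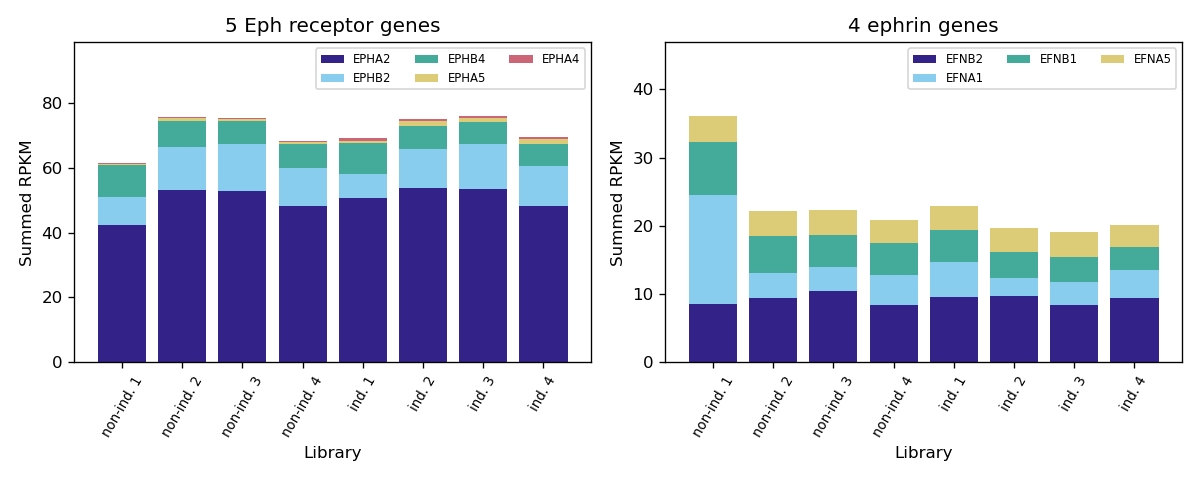
Stacked RPKM of the 5 receptor genes (left) and the 4 ephrin genes (right) in each library, non-induced 1 to 4 then induced 1 to 4, with a colour for each gene. EPHA2 fills most of every receptor bar, and the ephrin bar of non-induced library 1 (36.1) is tall through its EFNA1 part.

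The other 13 genes of the family ranged from silent to the levels of members. Without induction EFNB3 (mean 7.04 RPKM) stood above the member EFNB1 (5.66 RPKM), and EFNA4 (4.35 RPKM) above EFNA5 (3.58 RPKM). Of 9 further receptor genes 3 were tested (EPHA1, EPHA6 and EPHB1), and 0 of 3 passed in either edgeR fit, with 0 at an unadjusted p under 0.05 in each. The most abundant of them, EPHB1, had 4.74 ± 1.499 CPM in non-induced and 4.34 ± 1.34 CPM in induced libraries (SD, n = 4). EPHA8 had 0 reads in all libraries, and EPHA3, EPHA7, EPHA10, EPHB3 and EPHB6 had 5 to 22 reads in all. Of 4 further ephrin genes 3 were tested, and 1, EFNA3, fell with the block, where 6.29% of all tested genes did. EFNA3 had 19, 14, 21 and 15 reads in non-induced and 6, 9, 6 and 11 in induced libraries, with no overlap in CPM. EFNA3 changed by a log2 value of -1.15 (SE 0.31, edgeR adjusted p = 0.0237 with and 0.253 without the block), and it no longer passed without the pair numbered 1 or 3. EFNA3 shares 853 exon bases and EFNA4 189 with AL691442.1, a same-strand gene listed at 0 reads, so reads from the shared bases cannot be assigned with certainty. EFNA4 (5.498 ± 0.528 against 5.57 ± 0.394 CPM) and the third class B ligand EFNB3 (22.7 ± 5.66 against 20.1 ± 5.30 CPM, lower in 4 of 4 pairs) did not pass, with log2 changes of 0.02 and -0.17 and adjusted p of 0.926 and 0.0682 in edgeR with the block.

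Of 29 listed adaptors, kinases, exchange factors and GTPase regulators that carry the receptor signal inward, 28 were tested. With the block 2 rose and 3 fell, where 7.51% of all tested genes rose and 6.29% fell, and without it 0 passed in edgeR (1 with an unadjusted p under 0.05). The list's median log2 change was 0.04, beside 0.00 over all tested genes, and its median absolute change 0.09, beside 0.10. The adaptor NCK2, which links phosphorylated Ephs and ephrin-B tails to actin, fell by 0.27 on the log2 scale (adjusted p = 0.00117 in edgeR with and 0.596 without the block), from 57.3 ± 8.17 to 47.4 ± 7.11 CPM. Of the Src family kinases that act beside Eph receptors, SRC fell by 0.15 (adjusted p = 0.0136 with and 0.347 without the block) and FYN by 0.27 (0.0251 and 0.727). The kinase ABL2 rose by 0.21 (adjusted p = 0.00424 with and 0.662 without the block), from 173 ± 22.9 to 199 ± 23.9 CPM. ROCK2, a kinase that promotes actomyosin contraction, rose by 0.18 (adjusted p = 0.0191 with and 0.759 without the block). NCK2 and ABL2 passed in 12 of 12 block alternatives, while FYN was lost without pair 3 or 4, ROCK2 without pair 1 or 4, SRC without pair 3, and FYN and SRC also in DESeq2 with the block.

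Of 13 listed partners of the ephrin-B tail 12 were tested, and with the block 1 rose and 2 fell, where 13.8% of all tested genes were called (without it 0 in edgeR, 1 with an unadjusted p under 0.05, and 1, SDCBP, in DESeq2). PTPN13, a phosphatase that binds the ephrin-B tail through a PDZ domain and removes its phosphates, was higher in all 4 pairs. Its levels were 109, 66.6, 58.3 and 76.4 CPM in non-induced and 143, 86.6, 85.0 and 124 CPM in induced libraries 1 to 4, with overlap between the groups, and PTPN13 rose by 0.50 on the log2 scale (SE 0.05, edgeR adjusted p = 7.78e-05 with and 0.568 without the block). SDCBP, or syntenin, a PDZ scaffold of the same tail, fell by 0.22 (adjusted p = 0.00445 in edgeR with and 0.284 without the block), from 174 ± 13.4 to 149 ± 1.67 CPM, with no overlap. DVL1, a Dishevelled scaffold, fell by 0.15 (adjusted p = 0.0324 with and 0.667 without the block), and was lost without pair 3 or 4 and in DESeq2 with the block.

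Of 15 listed proteases, gamma-secretase subunits, phosphatases and ubiquitin ligase genes of Eph turnover 14 were tested, and with the block 0 rose and 2 fell, a share near the 13.8% of all tested genes called in that fit (without it 0 in edgeR, 2 with an unadjusted p under 0.05). MMP14, the membrane protease that cuts EphA2, was measured at 373, 338, 347 and 308 CPM in non-induced and at 302, 289, 277 and 229 CPM in induced libraries. The groups did not overlap, and MMP14 fell by 0.32 on the log2 scale (SE 0.04, edgeR adjusted p = 1.27e-04 with and 0.331 without the block). PSENEN, a gamma-secretase subunit, fell by 0.26 (adjusted p = 0.0273 with and 0.408 without the block), and was lost without pair 1, 3 or 4 and in DESeq2 with the block. PTPRO, the podocyte phosphatase that acts on Eph receptors, had 16 reads in all and was not tested.

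**Figure D5:**
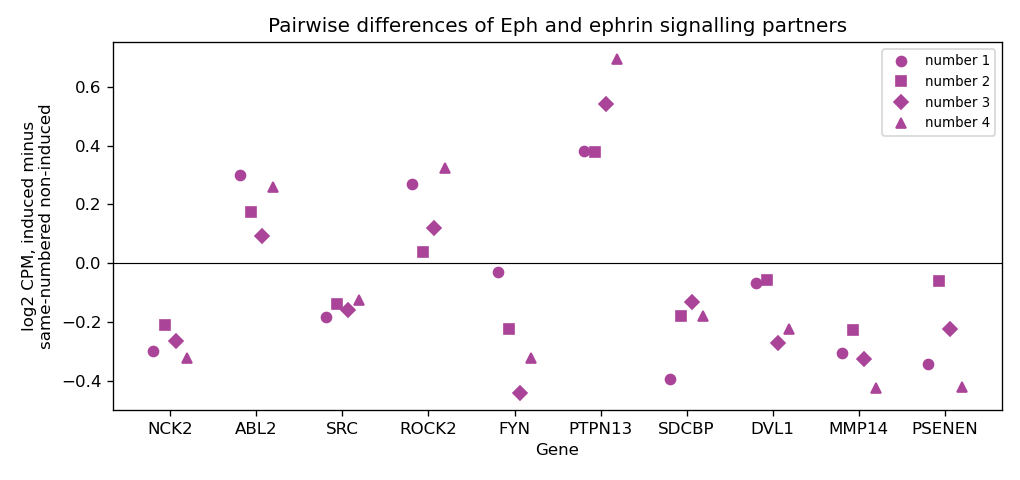
Log2 CPM difference, induced minus non-induced library of the same number, for the 10 partner genes that passed with the block; marker shape gives the number. PTPN13 shows the largest differences (0.38 to 0.70), and the others lie between -0.44 and 0.32.

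Genes whose level over the 8 libraries most resembled that of a called member were found by Pearson correlation of log2 CPM among 12635 tested genes of at least 1 CPM. For EPHA5 they were FOXP2 (r = 0.99), VPS26B (0.98) and S1PR1 (0.98). For EPHA4 they were RAB11FIP4 (0.99), ZNF79 (0.98) and ZNF678 (0.97), and for EFNB1 SLC25A39 (0.97), WBP2 (0.96) and IFNGR2 (0.96). These are descriptions over 8 points that share the induction and the distance of the libraries numbered 1.

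The start regions of the 3 called members are shown because 2 of them moved up and 1 down, and to set their motifs side by side. The windows are the 250 bases before a start in RefSeq (GRCh38.p14, 35116 windows in all), on the gene's strand, 5′ to 3′, less any bases that GENCODE 29 counts as an exon of the gene. Capitals mark matches, on either strand, to GGGCGG (a GC box, in 42.6% of all windows) and CCAAT (32.0%), which do not overlap here. They are EPHA4 from its outer start (chr2:221574203-221574452, minus strand), EPHA4 from its inner start (chr2:221572359-221572554, minus), EPHA5 (chr4:65670496-65670739, minus) and EFNB1 (chrX:68828771-68828996, plus).
EPHA4 outer start: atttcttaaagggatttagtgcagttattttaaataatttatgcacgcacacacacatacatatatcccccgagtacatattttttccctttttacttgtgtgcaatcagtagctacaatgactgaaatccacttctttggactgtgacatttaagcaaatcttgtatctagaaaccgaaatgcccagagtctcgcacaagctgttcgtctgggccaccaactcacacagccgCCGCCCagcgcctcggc
EPHA4 inner start: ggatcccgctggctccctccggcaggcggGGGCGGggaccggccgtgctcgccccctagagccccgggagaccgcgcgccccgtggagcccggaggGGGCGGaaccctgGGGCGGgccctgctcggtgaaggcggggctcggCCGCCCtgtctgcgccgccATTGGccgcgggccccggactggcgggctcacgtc
EPHA5: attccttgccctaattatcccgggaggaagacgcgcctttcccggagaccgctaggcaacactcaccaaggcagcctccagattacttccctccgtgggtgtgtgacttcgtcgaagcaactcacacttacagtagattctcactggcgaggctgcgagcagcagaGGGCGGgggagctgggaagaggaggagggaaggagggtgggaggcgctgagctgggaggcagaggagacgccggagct
EFNB1: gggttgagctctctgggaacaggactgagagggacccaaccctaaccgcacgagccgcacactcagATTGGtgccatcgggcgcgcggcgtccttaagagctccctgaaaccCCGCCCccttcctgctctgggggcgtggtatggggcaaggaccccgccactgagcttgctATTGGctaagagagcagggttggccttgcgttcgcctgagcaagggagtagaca
The inner EPHA4 stretch holds 4 GC boxes and 1 CCAAT, the outer one 1 and 0, EPHA5 1 and 0, and EFNB1 1 and 2. TATAAA (in 10.7% of windows), TGANTCA (the AP-1 site, 6.57%) and TGACGTCA (the cAMP response element, 1.65%) were not among these letters. Over the windows of all 9 members, TATAAA occurred in EFNB2 alone and TGACGTCA in EPHA2 alone, and every window held at least 1 GC box. The GC content of the full windows was 43.2% and 78.0% for the outer and inner EPHA4 starts, 61.2% for the EPHA5 start shown and 63.6% for EFNB1, beside a median of 58.0% over all windows. A second EPHA5 start (window chr4:65669489-65669738, minus strand) is not printed, and its window had 75.2% GC and 1 GC box. A match describes letters and does not show a site in use.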

How the data were processed

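Per the labels' protocols, 8 RNA libraries were sequenced from a single end (75 bases, NextSeq 500). Tools named in the submitters' processing notes, without roles, are HTSeq 0.11.1, HISAT2 2.1.0, Trimmomatic 0.38, DESeq2 1.24.0 and bcl2fastq, with the build GRCh38. How strand was counted, and which annotation was used, is not stated there. The authors deposited raw read counts per Ensembl gene, used here as deposited. Their table of normalized counts was not used. Of 58395 genes, 58275 matched GENCODE release 29, which gave positions and exon lengths, and symbols came from a current name table. All 118 listed genes were found.

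Genes were kept by filterByExpr (minimum count 10), scaled by TMM in edgeR 4.0.16 (R 4.3.3), and tested by the robust quasi-likelihood test (two-sided, Benjamini-Hochberg FDR 0.05 over all tested genes). SE was taken from the F statistic. CPM use TMM-scaled totals, log2 CPM a prior count of 2, and RPKM the union of exons. The scripts were tested on simulated data. Same-numbered libraries deviated together from their group means, with correlations of 0.911, 0.704, 0.707 and 0.648 over 11502 genes. Libraries of different numbers from 2 to 4 also deviated together, at 0.349 to 0.667. Number 1 against the other numbers gave -0.775 to -0.617. For numbers 2 to 4, much of the same-number correlation is thus shared among these numbers. No label says what the numbers mark. The main fit therefore left the number out, and a second fit used it as a block. Changes in the text come from the second fit, and the unblocked value is printed where the call differs.

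The members and lists were chosen with earlier results of these data known. Named genes are CRB2, the 9 members, other tested family genes, and up to 6 called genes per partner list by smallest block p; marker genes that passed, and other genes named for their counts, level or overlap, were chosen after their values were seen. Alternatives were other scalings, filters and tools, and leaving out libraries or pairs.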

Additional observations from a re-analysis of the deposited data

Results flagged for a closer look

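In 20 sets of 4 libraries (the 9 members and the ratio of receptor to ephrin RPKM, in each group), 3 had a library whose gap to the next took up more of the whole range than Dixon's limit for 4 values allows. Chance alone flags about 1 in 20 such sets. All 3 were libraries numbered 1. EFNA1 stood at 40.4 CPM in non-induced library 1, against 11.1 CPM in the next. The ratio of summed receptor to summed ephrin RPKM was 1.70 in the same library, against 3.29 in the next, and shares that EFNA1 value. EPHB4 stood at 62.6 CPM in induced library 1, against 46.3 CPM in the next.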

How the results depend on the processing

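Over all tested genes, 6 were called without the replicate block and 2159 with it. With the block, 2150 were called under RLE scaling, 2208 under upper-quartile scaling, 2199 with library totals, 2711 without the filter, 1996 with a filter at 10 CPM, 2067 without robust estimation, 1107 in DESeq2 and 895 at FDR 0.01. Leaving out pair 1, 2, 3 or 4 with the block gave 1721, 1969, 1254 and 909. Without the block, 37 were called without the filter, 240 in DESeq2, 3 at FDR 0.01, 543 without both libraries numbered 1, and 3 to 16 with 1 library left out.

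Of the members, 0 were called without the block and 3 with it, also 3 with the block under each scaling, without the filter, without robust estimation, in DESeq2, at FDR 0.01 and without any 1 pair, and 3 without both libraries numbered 1 and no block. The block with the 10 CPM filter gave 1, since EPHA4 and EPHA5 are not tested there, and DESeq2 without the block gave 1. Of the pathway genes, 0 were called without and 11 with the block, also 11 with the block under RLE or upper-quartile scaling, the 10 CPM filter or no robust estimation. The block gave 13 with library totals or no filter, 6 in DESeq2, 5 at FDR 0.01, and 8, 15, 6 and 7 without pair 1, 2, 3 or 4. Without the block, DESeq2 gave 1, and leaving out both libraries numbered 1 gave 3, NCK2, FYN and SDCBP. PTPN13, MMP14, ABL2, SRC, ROCK2, DVL1 and PSENEN passed in 0 of 16 alternatives without the block, that one among them. EFNA3 passed in 0 of 15. Blocked fits with another scaling or filter were chosen after seeing the data.

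Changes near 0 turned sign when libraries were left out, none of them past the threshold. Without the block, EPHB2 was 0.009 without non-induced 3 and 0.078 without induced 1, EPHB4 0.008 and EFNB3 0.015 without non-induced 1, and EPHB1 0.048 without induced 1. EPHA1 was 0.079 without induced 1, 0.076 without both libraries numbered 1, and 0.08 with the block without pair 1. EFNB2 was -0.021, -0.031, -0.005 and -0.011 without non-induced 1 or 4 or induced 1 or 2, and -0.043 without both libraries numbered 1. With the block it was -0.042 and -0.037 without pair 1 or 4. EFNA4 was -0.053, -0.008 and -0.014 without non-induced 3 or induced 2 or 4, and -0.009 with the block without pair 3. At the other end, leaving out 1 library without the block gave EPHB2 -0.209, EPHB4 -0.229, EFNB2 0.075, EPHA1 -0.204, EPHB1 -0.332, EFNA4 0.058 and EFNB3 -0.376. Under the other scalings the median log2 change of all genes was -0.009 to 0.006, with or without the block. Without the filter this median was -0.024 without and -0.016 with the block. The cause of these shifts was not tested.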
